A study of Rattus norvegicus with 4 samples.

Results

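The Wnt signalling genes described here are the ligands (Wnt), the Frizzled receptors (Fzd), the LRP co-receptors, an R-spondin, the secreted antagonists (Sfrp, Dkk, Wif1) and a few intracellular components, in rat bone marrow cells grown at high or at regular density. They were taken from the authors' table of probe values by gene symbol. That rule used no level or change, but was chosen with earlier results of these data known. The symbols were those that begin with Wnt, Fzd, Sfrp or Dkk and a digit, or with Rspo, together with Frzb, Wif1, Lrp5, Lrp6, Ctnnb1, Axin2, Lef1, Tcf7 and Nkd1. This gave 31 of the 21473 probes in that table, for 25 of 14390 genes, and no row for Frzb or Axin2. The table leaves out 22 array probes of the same families, 21 of them under background on all 4 arrays.

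RNA came from high density cultures on 2 arrays and from regular density cultures on 2 arrays. In both groups the cells were bone marrow cells of Wistar rats aged 6 weeks, harvested after 15 days of culture, and the labels call the cells of both groups endothelial progenitor cells. Each RNA was labelled with Cy3 and hybridised alone to an Agilent one-colour array, where the brightness of a probe reports the RNA it binds. The sources used here speak of 2 independent experiments with different high density cells, and do not say that the regular density arrays are separate cultures, so a p-value here measures the spread between these 4 arrays only. In such bulk RNA, fewer cells of a type and less RNA per cell cannot be told apart.

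Wnt proteins are secreted, lipid-modified signals that bind a Frizzled receptor together with LRP5 or LRP6. In the canonical branch this stops the destruction of beta-catenin, which then enters the nucleus and acts with factors of the TCF/LEF family. R-spondins strengthen the signal by keeping Frizzled receptors at the cell surface, whereas Sfrp and Wif1 proteins bind Wnt ligands outside the cell. In bone marrow stroma, Wnt signals are known for their part in the choice between bone and fat formation.

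After scaling each array to its 75th percentile, 30367 probes were available, and the 15183 with a mean log2 intensity above the median of all probes were tested together with limma. Of these, 30.5 percent had an adjusted p under 0.05, 12.8 percent higher and 17.7 percent lower at high density, and the median log2 change was -0.08. Among the Wnt signalling probes, 21 were bright enough to be tested, for 19 genes, and 9 of them were called, 5 higher and 4 lower. Their median log2 change was 0.14. The 5 that rose at high density were Wnt1, Sfrp1, Rspo1, Lef1 and Ctnnb1, and the 4 that fell were Wif1, Sfrp2, Fzd6 and Sfrp4. With a fold of at least 2 added to the threshold, 4 members were higher and 2 lower, against 4.58 and 1.69 percent of all tested probes.

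Cell type markers also moved between the groups. Of 9 smooth muscle genes on the array, 7 were tested and 6 were higher, with a median log2 change of 3.06, and their summed scaled intensity was 123004 and 122094 at high density, against 20080 and 19079 at regular density. Of the dividing cell genes, all 7 on the array were tested and called higher (summed 3671 and 3790 at high density, against 1193 and 1240 at regular density). Among these, Top2a and Aurkb were under background on regular density replicate 1. The smooth muscle gene Cnn1, counted as higher, was under background on both regular density arrays. Cnn1, Top2a and Aurkb thus passed the filter through the high density arrays. Lymphocyte genes were higher in 2 of 3 tested (1648 and 1594 at high density, against 377 and 341 at regular density), with Cd3e, Cd3g and Cd79b at background on all arrays. Of 10 endothelial genes, the cell type of the label, 4 were tested and 1, Flt1, was higher by 1.59 on the log2 scale. The endothelial genes summed to 808 and 576 at high density, against 569 and 508 at regular density. Cd34, Tek, Emcn and Cldn5 were at background on all 4 arrays, and Pecam1 and Kdr were above it on 1 array each. Macrophage genes summed to 44114 and 38806 at high density, against 31944 and 29995 at regular density, with 4 higher and 1 lower of 9 tested. Stromal genes summed to 272831 and 255725 at high density, against 268168 and 235537 at regular density, with 3 higher and 1 lower of 10 tested. Osteoblast genes summed to 26006 and 26096 at high density, against 18101 and 19446 at regular density, with 2 of 4 tested higher. Adipocyte genes summed to 1076 and 1166 at high density, against 635 and 678 at regular density, with 3 of 4 tested higher, and chondrocyte genes to 579 and 472 at high density, against 1298 and 1129 at regular density. That sum was led by Comp, which was lower (-3.09), while Sox9 was higher (1.36), Col2a1 was at 0.48 without a call, and the median of these 3 tested genes was 0.48. The part of these cell type differences in the Wnt gene values was not tested.

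Background on each array was the 99th percentile of its 153 negative control spots, and lay between 28.2 and 36.9 intensity units. The control spots had medians of 13.4 and 1.93 on the high density arrays, against 10.5 and 1.99 on the regular density arrays, so the control medians were alike between arrays of one replicate number. For that reason the difference between same-numbered arrays is given beside each called change. Of the 31 probes, 20 were above background on all 4 arrays, 1 on 3 arrays, 5 on 2 arrays, 2 on 1 array and 3 on none. Both high density arrays were above it for 24 probes and both regular density arrays for 20. Intensities below are the authors' raw values in arbitrary units, and a probe's brightness is not compared with that of another probe.

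**Figure D1:**
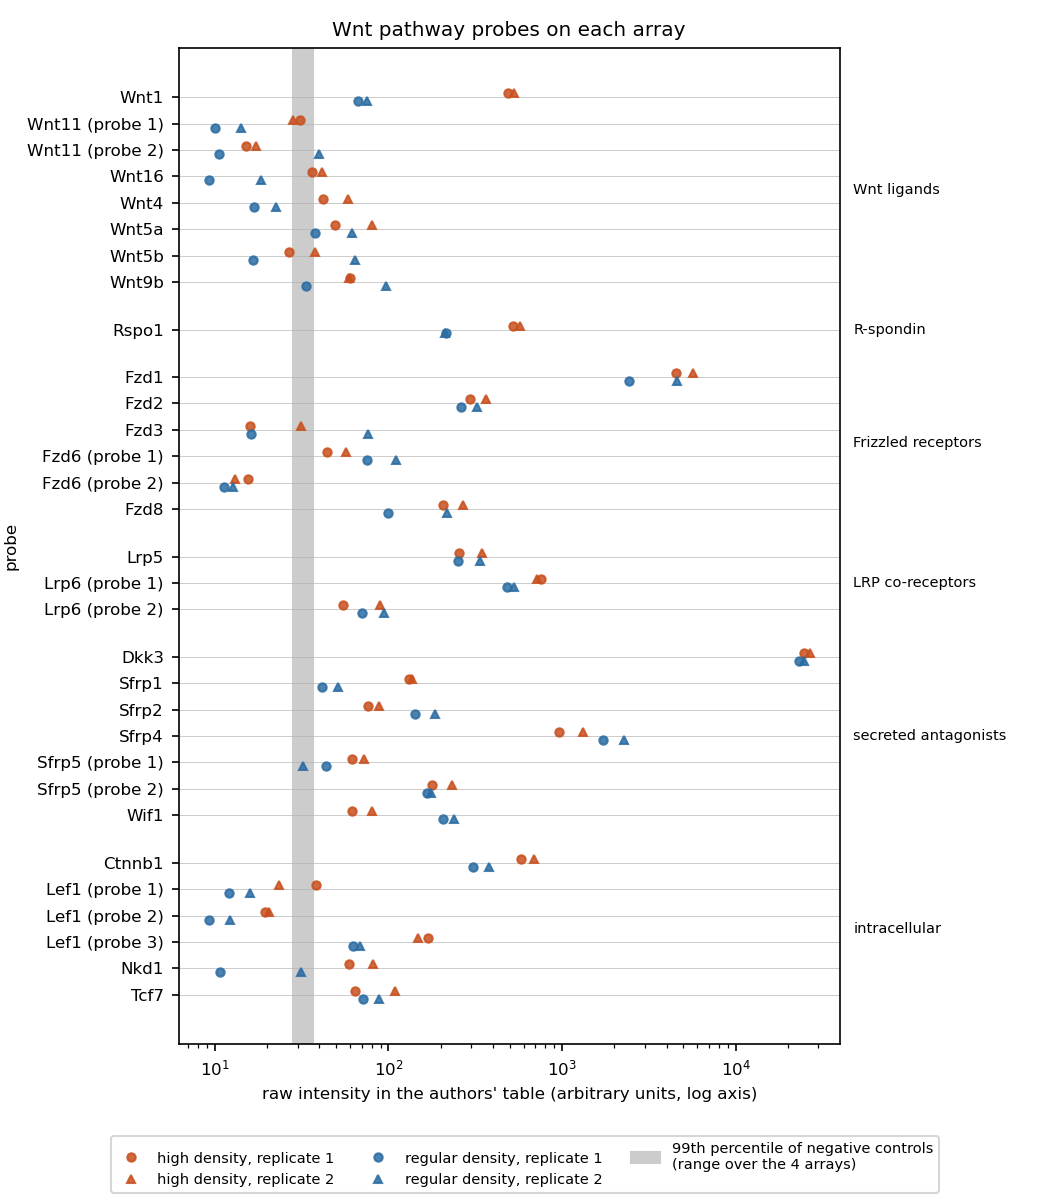
Raw intensity of the 31 Wnt signalling probes on each of the 4 arrays, on a log axis, grouped by role, with orange points for high density and blue points for regular density. The grey band spans the background levels of the 4 arrays, from 28.2 to 36.9. Wnt1 lies at 491 and 532 at high density, against 66.7 and 75.6 at regular density, and several other Wnt probes lie in or left of the band.

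Promoter sequences from RefSeq (assembly GRCr8) were matched for 16 of the 25 genes. The 250 bases upstream of each start were searched on both strands for CTTTGAA and CTTTGAT, forms of the core motif bound by TCF/LEF factors. Among 33469 promoters, 4.68 percent held CTTTGAA, 3.15 percent held CTTTGAT and 7.58 percent held either. Of the 16 matched genes only Nkd1 held one, CTTTGAT at position -141 from the start, and 0 of the 6 matched genes that were called held one. The median GC content of the 16 promoters was 63.4 percent, against 51.2 percent over all promoters. The promoters of 3 genes are printed, 5′ to 3′, for the gene with the largest rise (Wnt1, chr7:131817308-131817557, plus strand), the gene with the largest fall (Wif1, chr7:58433329-58433578, plus strand) and the gene with a match (Nkd1, chr19:34722847-34723096, minus strand). Capitals mark the match, and a match is a run of letters, not a measured binding site.
Wnt1: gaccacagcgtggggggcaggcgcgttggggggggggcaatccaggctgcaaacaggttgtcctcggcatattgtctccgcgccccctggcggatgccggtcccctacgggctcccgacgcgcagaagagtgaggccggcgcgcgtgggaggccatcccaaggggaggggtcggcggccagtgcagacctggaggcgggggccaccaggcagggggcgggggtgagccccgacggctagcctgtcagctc
Wif1: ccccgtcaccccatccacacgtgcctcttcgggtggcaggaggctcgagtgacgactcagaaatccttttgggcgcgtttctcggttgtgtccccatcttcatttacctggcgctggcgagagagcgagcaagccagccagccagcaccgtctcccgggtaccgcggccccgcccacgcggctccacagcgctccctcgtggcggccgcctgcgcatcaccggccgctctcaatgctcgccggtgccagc
Nkd1: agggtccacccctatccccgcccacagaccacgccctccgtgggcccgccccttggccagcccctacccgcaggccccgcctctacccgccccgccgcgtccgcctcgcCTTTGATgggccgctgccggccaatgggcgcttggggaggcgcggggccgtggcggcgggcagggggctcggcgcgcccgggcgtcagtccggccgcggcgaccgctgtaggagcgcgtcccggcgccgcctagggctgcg

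Among the ligands, Wnt1, a canonical Wnt best known from brain development, was the only tested one of 3 that was called. Its probe read 491 and 532 at high density, against 66.7 and 75.6 at regular density. Every high density value was above every regular density value, and all 4 were above background. The log2 change was 2.74 (SE 0.12, limma adjusted p = 0.000106), a fold of 6.69, and it was 2.76 between the arrays numbered 1 and 2.72 between those numbered 2. Its probe is placed at chr7:137561824-137561883 by the authors, on an assembly they leave unnamed, as for the other probe positions below.

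Wnt5a, a ligand of the non-canonical branches, read 49.0 and 80.0 at high density, against 37.5 and 61.7 at regular density. The groups overlapped, and the log2 change of 0.28 was not called (limma adjusted p = 0.470). Wnt9b, a canonical ligand of kidney development, read 60.2 and 58.9 at high density, against 33.4 and 96.2 at regular density. Both high density values lay between the regular density ones, and the difference was 0.73 between the arrays numbered 1 and -0.80 between those numbered 2.

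The other 5 ligand probes, for Wnt4, Wnt5b, Wnt11 and Wnt16, were too dim for the test. Wnt4 and Wnt16 were above background on both high density arrays and on neither regular density array. Wnt4 read 41.8 and 58.7 at high density, against 16.7 and 22.6 at regular density, at least 1.39-fold higher. Wnt16, a ligand known in bone for limiting osteoclast formation, read 36.1 and 41.5 at high density, against 9.26 and 18.5 at regular density, at least 1.09-fold higher. These bounds set the mean log2 value of the high density arrays against the background level of each regular density array. When every probe was tested, with no filter on dim probes, the limma adjusted p was 0.0157 for Wnt4 and 0.0310 for Wnt16. Both p-values use regular density values under background, which are not measured levels, so they add nothing to the bounds.

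The remaining dim ligands gave no common picture. Wnt5b read 26.9 and 37.6 at high density, against 16.5 and 64.1 at regular density, with 1 array of each group above background. One Wnt11 probe read 30.9 and 28.2 at high density, against 10.0 and 14.2 at regular density, and was above background on no array. The other, placed 238 bases away, read 15.2 and 17.3 at high density, against 10.6 and 39.8 at regular density, and passed background only at 39.8. No direction is given for Wnt11.

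Rspo1, the only R-spondin in the authors' table, amplifies Wnt signals through Lgr receptors. It read 523 and 572 at high density, against 215 and 211 at regular density, with no overlap. The log2 change was 1.26 (SE 0.14, limma adjusted p = 0.00164), a fold of 2.39, and the same-numbered arrays differed by 1.16 and 1.35. The probe is placed at chr5:144352967-144353026.

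Of the Frizzled receptors, 4 of 6 probes were tested, and 1, for Fzd6, was called, 25 percent beside 30.5 percent of all tested probes. Fzd6, a receptor with a known part in planar cell polarity, read 44.4 and 56.8 at high density, against 75.3 and 111 at regular density, on a probe placed at chr7:74593649-74593708. The high density values were both lower, with a log2 change of -0.97 (SE 0.20, limma adjusted p = 0.0151). The same-numbered arrays differed by -0.88 and -1.05. Its mean log2 value was 5.60 at high density, under the filter level of 5.62, and 6.56 at regular density. Fzd6 thus passed the filter through the regular density arrays. The call was lost without regular density replicate 2 (-0.83, adjusted p = 0.0951) and without scaling (-0.86, adjusted p = 0.0934). A second Fzd6 probe was below background on all 4 arrays, at 15.4 and 13.1 for high density, against 11.3 and 12.7 for regular density.

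The other tested Frizzled probes were above background on all 4 arrays and were not called. Fzd1 read 4516 and 5696 at high density, against 2435 and 4567 at regular density, a log2 change of 0.50 (SE 0.19, limma adjusted p = 0.0988). Fzd8 read 206 and 270 at high density, against 99.3 and 217 at regular density, a log2 change of 0.58 (SE 0.26, limma adjusted p = 0.140). For both, regular density replicate 1 was well below regular density replicate 2, and the groups overlapped in raw intensity but not after scaling. Without regular density replicate 2 both were called higher, Fzd1 at 0.81 (adjusted p = 0.00453) and Fzd8 at 1.00 (adjusted p = 0.00700). Without regular density replicate 1 neither was called, with 0.19 for Fzd1 (adjusted p = 0.223) and 0.16 for Fzd8 (adjusted p = 0.417). With no filter on dim probes, Fzd1 was called (adjusted p = 0.0298). Fzd2 read 295 and 364 at high density, against 263 and 324 at regular density, a log2 change of 0.06 (limma adjusted p = 0.669). Fzd3, too dim for the test, read 15.9 and 31.1 at high density, against 16.2 and 76.4 at regular density.

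Neither LRP co-receptor was called. Lrp5 read 256 and 346 at high density, against 251 and 339 at regular density, and the groups overlapped. For Lrp6, 1 probe read 756 and 719 at high density, against 482 and 531 at regular density, a log2 change of 0.44 (SE 0.14, limma adjusted p = 0.0544). The other Lrp6 probe, which starts 764 bases away, read 54.9 and 89.4 at high density, against 70.9 and 94.2 at regular density, a log2 change of -0.33 (limma adjusted p = 0.287). The first Lrp6 probe was near the threshold, and its call moved with the processing. It was called with quantile normalization (limma adjusted p = 0.0480), with the authors' normalized values (0.0483), with no filter (0.0308) and with a stricter filter (0.0478). Its change was 0.61 without high density replicate 2 (limma adjusted p = 0.0183) and 0.27 without high density replicate 1 (limma adjusted p = 0.374).

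**Figure D2:**
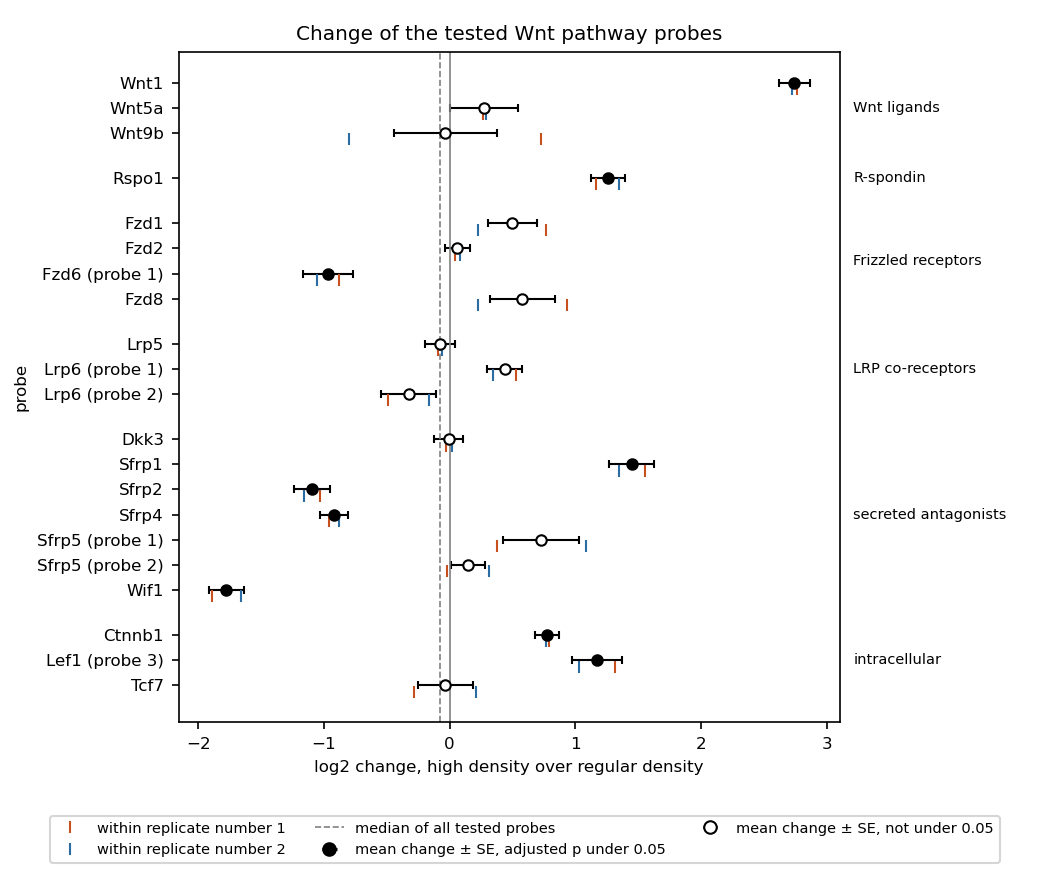
Log2 change, high density over regular density, of the 21 tested Wnt signalling probes, with the mean change and its SE as circles and bars and the differences between same-numbered arrays as ticks. Filled circles have a limma adjusted p under 0.05, and the dashed line is the median of all tested probes, -0.08. Wnt1 stands at 2.74 and Wif1 at -1.78, while the ticks of Wnt9b lie on either side of 0.

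The secreted antagonists held 4 of the 9 calls, 1 higher and 3 lower, among 7 tested probes. Over all tested probes, 12.8 percent were called higher and 17.7 percent lower. Wif1, which binds Wnt ligands directly, read 61.5 and 80.3 at high density, against 207 and 238 at regular density. The groups were well apart and all values were above background. The log2 change was -1.78 (SE 0.14, limma adjusted p = 0.000474), so regular density was 3.42-fold higher, and the same-numbered arrays differed by -1.89 and -1.66. The probe is placed at chr7:60399964-60400023.

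The Sfrp family, whose members carry a Frizzled-like domain that binds Wnt proteins, was split in direction. Sfrp1 read 132 and 138 at high density, against 41.3 and 50.9 at regular density. Sfrp1 rose without overlap, with a log2 change of 1.45 (SE 0.18, limma adjusted p = 0.00265), a fold of 2.73, and differences of 1.56 and 1.34 between same-numbered arrays. Its mean log2 value was 5.57 at regular density, under the filter level of 5.62, and 7.02 at high density. Sfrp1 thus passed the filter through the high density arrays. Sfrp2 read 75.8 and 88.4 at high density, against 143 and 185 at regular density. Sfrp2 fell, with a log2 change of -1.10 (SE 0.14, limma adjusted p = 0.00313), with -1.03 and -1.16 between same-numbered arrays. Sfrp4, a family member also known for lowering phosphate levels, read 961 and 1314 at high density, against 1721 and 2274 at regular density. It fell by 0.92 on the log2 scale (SE 0.11, limma adjusted p = 0.00233), with -0.96 and -0.88 between same-numbered arrays. The probes are placed at chr16:73030329-73030388 (Sfrp1), chr2:175486729-175486788 (Sfrp2) and chr17:53121979-53122038 (Sfrp4).

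Sfrp5 had a pair of probes, and neither was called. One read 61.8 and 72.7 at high density, against 43.9 and 32.3 at regular density, a log2 change of 0.73 (SE 0.30, limma adjusted p = 0.114), and its second regular density value was below background. Its change was 1.09 without regular density replicate 1 and 0.36 without regular density replicate 2, and neither was called (limma adjusted p = 0.0626 and 0.421). The other read 179 and 232 at high density, against 167 and 176 at regular density, a log2 change of 0.14 (limma adjusted p = 0.438). Dkk3, a Dickkopf relative that differs from the family members known to block LRP6, read 24822 and 26796 at high density, against 23299 and 24918 at regular density. Its log2 change was -0.01 (SE 0.12, limma adjusted p = 0.969), and after scaling the groups overlapped.

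Among the intracellular components, Ctnnb1 and Lef1 rose. Ctnnb1 encodes beta-catenin, which also holds cadherins at cell contacts, and read 577 and 686 at high density, against 307 and 379 at regular density. Its log2 change was 0.78 (SE 0.09, limma adjusted p = 0.00252), a fold of 1.71, and the same-numbered arrays differed by 0.79 and 0.77. Its probe is placed at chr8:125985864-125986043. Lef1, a nuclear partner of beta-catenin, read 169 and 148 at high density, against 62.5 and 68.3 at regular density, on a probe at chr2:228659730-228659789. That probe changed by 1.17 (SE 0.20, limma adjusted p = 0.00790), a fold of 2.25, with differences of 1.31 and 1.03 between same-numbered arrays.

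A further pair of Lef1 probes was too dim for the test. They read 38.3 and 23.5, and 19.5 and 20.6, at high density, against 12.1 and 15.9, and 9.20 and 12.2, at regular density. Only the 38.3 was above background. Tcf7, another TCF/LEF factor, read 63.8 and 109 at high density, against 71.4 and 88.0 at regular density, with a log2 change of -0.03 (limma adjusted p = 0.918) and overlapping groups. Nkd1, an inhibitor that binds Dishevelled and is itself a described Wnt target, read 59.0 and 81.2 at high density, against 10.7 and 31.1 at regular density. Nkd1 was above background on both high density arrays and on neither regular density array, at least 1.95-fold higher. It was too dim for the filtered test, and its limma adjusted p with no filter was 0.00248. That p-value, too, uses regular density values under background and adds nothing to the bound.

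Over all 21 tested members, the scaled values of the groups did not overlap for 15, beside 69.2 percent of all tested probes. The calls were 42.9 percent of the tested members, beside the 30.5 percent given above. Under 14 alternative ways of processing, the 9 called probes gave 123 values, all in the reported direction, and 121 of them kept the call. The 2 that did not were both of Fzd6. The stricter filter left Fzd6, Lef1 and Sfrp1 untested. Refits of the same scaled values could not change the direction. Leaving out an array could not either, as the groups of these 9 probes did not overlap. Direction was therefore tested only by the other scalings and the authors' normalized values. For these probes, the authors' values gave nearly the same changes as quantile normalization.

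**Figure D3:**
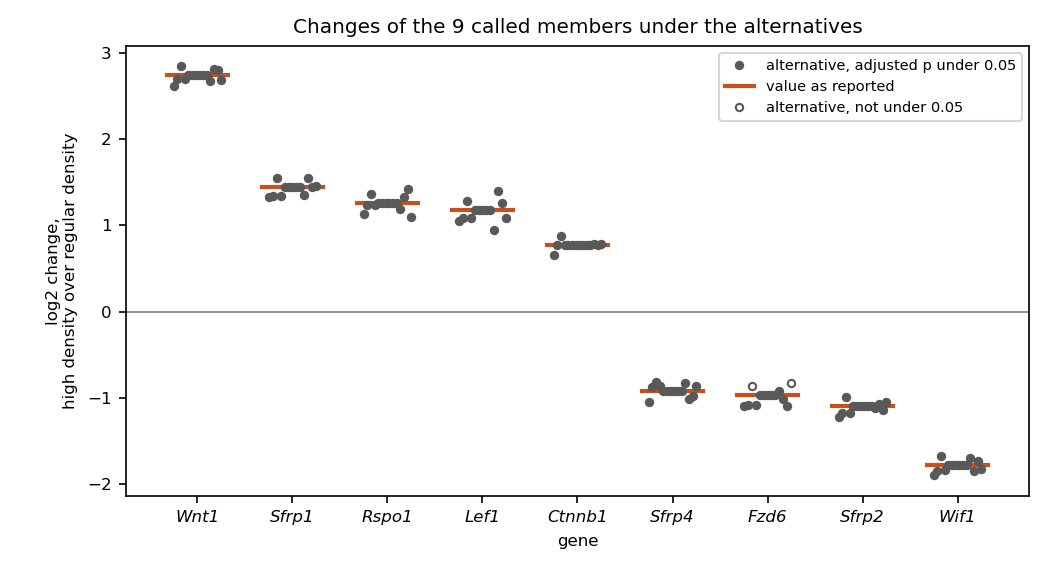
Log2 change, high density over regular density, of the 9 called Wnt signalling probes, with the value as reported as an orange bar and each alternative processing as a point. Filled points have a limma adjusted p under 0.05. The values of Wnt1 lie between 2.62 and 2.85 and those of Wif1 between -1.90 and -1.67, and the 2 open points belong to Fzd6.

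Genes that act elsewhere in the pathway were followed in 7 lists with 113 symbols, which hold Ccn4 and Ccn5 under older symbols as well. Of these symbols, 99 were found on the array, and the brightest probe of each gene was taken. Of 74 tested genes, 18 were higher, 5 were lower and 51 were not called, with a median log2 change of 0.15. The calls were 31.1 percent of the tested genes, near the 30.5 percent of all tested probes, with 24.3 percent higher and 6.76 percent lower, beside 12.8 and 17.7 percent of all tested probes. The lists were chosen with earlier results of these data known. Shares of the lists, here and below, therefore only describe the listed genes. Nkd2, a Dishevelled-binding relative of Nkd1, read 3728 and 4340 at high density, against 734 and 1062 at regular density. It had a log2 change of 2.08 (SE 0.11, limma adjusted p = 0.000163). The remaining genes of the list of Dishevelled and the beta-catenin destruction complex gave 1 lower call, Amer1 (-0.69), and 15 without a call, of 17 tested.

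In ligand secretion, Porcn, the enzyme that attaches the lipid to Wnt proteins, was higher by 0.52 (limma adjusted p = 0.0174), and it was the only call of 2 tested genes. Of 8 tested receptors and regulators at the membrane, 3 were higher and 3 lower, beside 12.8 and 17.7 percent of all tested probes. Gpc4, a heparan sulphate proteoglycan, was higher by 1.12, Ptk7, a pseudokinase of the planar polarity branch, by 0.63, and Ror2, a receptor for Wnt5a, by 0.47. Lower were Cthrc1 (-1.31), a secreted protein that binds Wnt and Frizzled, Lgr4 (-0.89), an R-spondin receptor, and Ryk (-0.49), a Wnt-binding receptor. Rspo1 and its receptor gene Lgr4 thus differed in direction, with Lgr4 at 316 and 353 at high density, against 544 and 606 at regular density.

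The list of nuclear factors left out the members Lef1, called higher above, and Tcf7. None of its 12 tested genes was called by limma, beside 30.5 percent of all tested probes. Their median log2 change was 0.01, and 1 of them had an unadjusted p under 0.05. In the planar cell polarity list, 2 of 9 tested genes were higher, Fuz (0.85) and Daam1 (0.51), and none was lower. Over all tested probes, 12.8 percent were higher and 17.7 percent lower. In the calcium list, 5 of 9 were higher and none lower, with a median log2 change of 0.42, beside 12.8 percent higher and a median of -0.08 over all tested probes. Camk2g (0.94) and Camk2d (0.61), subunits of a calmodulin-dependent kinase, Prkcb (0.63), a protein kinase C, Nlk (0.74) and Nfatc4 (0.33) made up these calls.

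Of 17 tested genes described elsewhere as Wnt targets, 6 were higher and 1 was lower, 35.3 and 5.88 percent, beside 12.8 and 17.7 percent of all tested probes. Their median log2 change was 0.34, beside -0.08 for all tested probes. As this list was chosen with earlier results known, these values are no independent evidence of Wnt activity. Mmp7, a matrix protease, was higher by 1.79, Lbh by 1.60, Tnfrsf11b, which encodes the osteoclast inhibitor osteoprotegerin, by 1.29, Msx1 by 1.05, Id2 by 0.93 and Plaur by 0.42. Ccn5, a matricellular protein, was lower (-0.82). The cell cycle targets Ccnd1 (-0.01) and Myc (-0.06) were not called, while the dividing cell markers were called higher, as given above. Axin2 read 14.0 and 6.98 at high density, against 11.8 and 7.88 at regular density, below background on all 4 arrays.

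**Figure D4:**
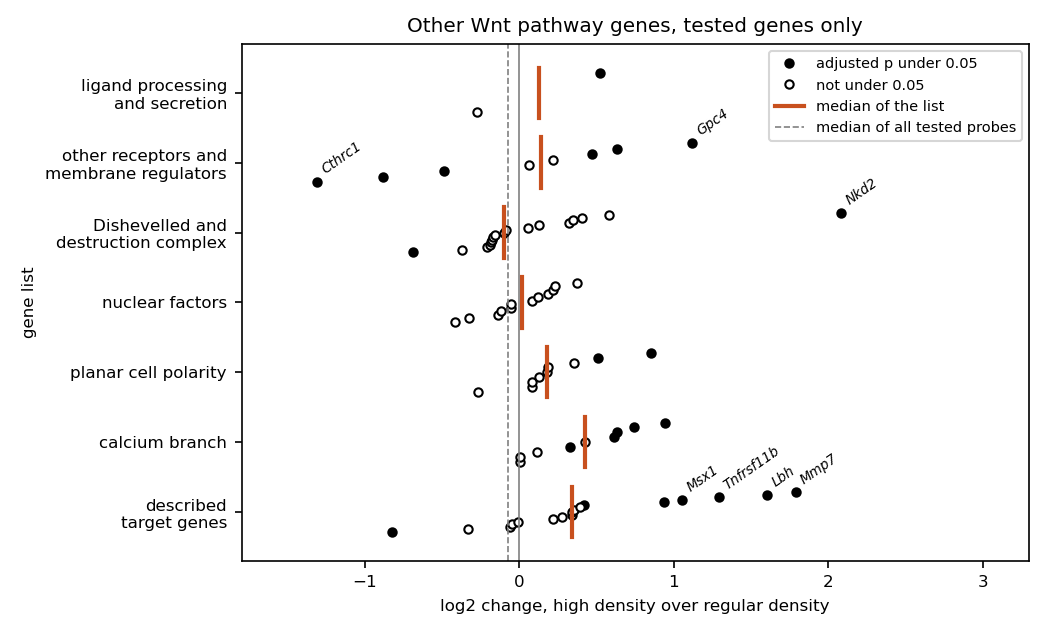
Log2 change, high density over regular density, of the tested genes of 7 other Wnt pathway lists, 1 point a gene. Filled points have a limma adjusted p under 0.05, orange bars are the median of each list and the dashed line is the median of all tested probes, -0.08. Nkd2 stands at 2.08 among Dishevelled and destruction complex genes. The nuclear factors, a list without the members Lef1 and Tcf7, hold no filled point.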

How the data were processed

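Total RNA from both density groups was hybridised to 4 Agilent one-colour arrays. Per the submitters' processing notes, Agilent Feature Extraction 11.0.1.1 read the images, and the authors deposited linear intensities per spot (44254 spots an array). The authors' probe table holds raw intensity with a minimum of 5 and normalized log2 values. GeneSpring GX 12.0 is named per the file headers, and the method of normalization is not given in the sources used here.

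From the spot intensities, 1377 control spots were left out and spots of a probe were averaged on the log2 scale (30367 probes). Each array was scaled to its 75th percentile (386 and 462 at high density, against 355 and 435 at regular density). Probes with a mean log2 above 5.62 were tested with limma 3.58.1 in R 4.3.3 (lmFit, eBayes with trend, two-sided) and Benjamini-Hochberg adjustment over 15183 probes, threshold 0.05. On simulated data for this comparison and 15183 probes, 178 of 200 probes changed by 2 on the log2 scale were recovered, with 7 false calls. Noise was drawn independently for each array, and among the called members only Wnt1 changed by more than 2. The recovery of smaller changes was not simulated. Groups came from the sample titles, and replicate numbers were not taken as pairs. The number of arrays, 4, limits the precision.

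The members and the lists were chosen with earlier results of these data known. Values on every array are given for each called member, for each member above background in 1 group only and for genes whose probes disagree, and beyond that rule for the other members because they are few. Of the other pathway lists, up to 3 called genes with the smallest p were to be named, and further ones were named after their values were seen. Alternatives covered scaling, the authors' normalized values, the filter, an intensity floor, 1 probe a gene, the variance trend, a replicate block and each array left out.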

Additional observations from a re-analysis of the deposited data

How the results depend on the processing

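Over 14 alternative settings, the 9 called members gave 123 values, of which 121 kept the call. The 2 losses were both Fzd6, without scaling and without regular density replicate 2. None changed direction, which refits of the same scaled values or leaving out 1 array could not have changed for these probes. The count of higher members, 5 as reported, was 10 with no filter on dim probes (31 tested) and 9 with replicate number as a block, which added Fzd1, Fzd8, Lrp6 (1 probe) and Sfrp5 (1 probe), and the count of lower members, 4, was 2 with a fold of at least 2. Leaving out 1 array gave 5 to 7 higher and 3 to 4 lower. The probes above background on all 4 arrays, 20 as reported, numbered 10 against the maximum of the negative controls. Deviations of same-numbered arrays correlated at 0.368 over probes, and with only 2 numbers this was not taken as pairing.

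Some uncalled members changed sign: Fzd2 with median scaling (-0.0633), and without scaling Wnt9b (0.0714), Dkk3 (0.0981), Lrp5 (0.0291) and Tcf7 (0.0709). Dkk3 also did with quantile normalization (0.2983) and the authors' values (0.2983). With 1 array left out, the values ran from -0.6518 to 0.5841 for Wnt9b, from -0.1045 to 0.0901 for Dkk3, from -0.1644 to 0.0119 for Lrp5 and from -0.2878 to 0.2190 for Tcf7. The cause was not tested.

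Over all probes, 4638 were called (1948 higher, 2690 lower), against 2132 without scaling (1506 and 626), 7641 with the replicate block and 2569 without high density replicate 1. Median scaling gave 1323 higher and 3565 lower, with a median change of -0.20, and quantile normalization 1996 and 2045. Signal near background limits the 10 untested probes.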

Other observations

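The array also held 22 probes of the same families, Axin2 among them, that are not in the authors' probe table; 21 of them were under background on all 4 arrays. They cover 20 genes with no other probe, among them 10 Wnt and 3 Frizzled genes, Dkk1, Dkk2, Dkk4, Frzb, Rspo2 and Rspo3. The exception was Rspo3, which passed background on high density replicate 2 alone, at 31.8.

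Further receptors sat in the authors' table under other symbols and so were not members. The probe whose description names Fzd7 read 91.0 and 87.3 at high density, against 64.7 and 66.1 at regular density, a log2 change of 0.34 (limma adjusted p = 0.251), above background on all 4 arrays. The probe matched to Fzd10 read 67.3 and 102 at high density, against 71.4 and 111 at regular density, a log2 change of -0.21 (limma adjusted p = 0.487). A Wnt3a probe without a symbol read at most 12.9 at high density, against at most 17.5 at regular density, under background on all 4 arrays.

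A pair of Lef1 probes share 52 bases, with starts 8 bases apart in the authors' table, and 1 of them was called. That probe was above background on all 4 arrays and its neighbour on 1, high density replicate 1.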
